A study of Mus musculus with 12 samples.

Results

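The 10 genes described here encode parts of the insulin-like growth factor (IGF) and insulin signalling pathway and the ligand of the KIT receptor in the ovarian follicle. They are Igf1, Igf1r, Igfbp4, Igfbp5, Pappa, Irs1, Irs2, Foxo1, Foxo3 and Kitl. They were listed by name, without a threshold on a measured value but with earlier results of these data known, and each was found by its Ensembl identifier among 35856 genes listed for at least 1 of the 2 cell types, of which 26382 were listed for both. RNA-seq was performed on 12 libraries of MGCs (mural granulosa cells, found along the follicle wall) and of cumulus cells, which surround the oocyte. Both cell types were collected 2 h after human chorionic gonadotropin (hCG), a hormone with LH activity, from WT mice and from Sphk1/2gc-/- mice, with 3 libraries for each cell type and genotype. Sphk1 and Sphk2 encode the sphingosine kinases, which make sphingosine-1-phosphate, and the comparison of genotypes asks which transcripts differ when both are targeted.

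All mice were immature females primed with equine chorionic gonadotropin (eCG) before hCG. The paper lists purchased C57/BL6 mice as WT, and the sample labels call the WT libraries Control without stating their alleles. Sphk1/2gc-/- mice combined a null allele of Sphk1 in all tissues (Sphk1-/-), loxP-flanked Sphk2 (Sphk2 fl/fl) and an Fshr-Cre transgene, in which the promoter of the FSH receptor gene drives Cre in granulosa cells. The sources used here give no control that carries Fshr-Cre alone. Any effect of the transgene or of strain background therefore cannot be told apart from that of the targeted alleles. The labels do not say whether the 3 libraries of a group came from separate or pooled animals, so the p-values measure the spread between these libraries. Libraries held between 16100365 and 19761604 reads assigned to genes, as recovered from the deposited values. Levels are given as FPKM, fragment counts scaled to exon length and to the library total. This scaling does not correct for base composition, so comparisons between genes are approximate, above all across cell types. All 8 granulosa cell markers examined, among them Foxl2, Amhr2 and Fshr, were present in every group. Sphk1 in MGCs ranged from 0.460 to 1.88 FPKM in WT, against 0.104 to 0.557 FPKM in libraries labelled Sphk1/2gc-/-, whereas in cumulus cells it ranged from 0.0699 to 0.0954 FPKM in WT, against 0.0778 to 0.557 FPKM in libraries labelled Sphk1/2gc-/-. Sphk2 levels overlapped between genotypes in both cell types, and a gene-level value does not show whether the floxed exons are missing.

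IGF1 is a secreted growth factor that binds the IGF1 receptor on granulosa cells, where it acts together with FSH. Binding proteins such as IGFBP4 and IGFBP5 hold IGF1 away from its receptor, and the protease PAPP-A (Pappa) cuts both of them. The activated receptor phosphorylates the insulin receptor substrates IRS1 and IRS2, which recruit PI3-kinase and lead to activation of AKT, and AKT keeps the transcription factors FOXO1 and FOXO3 out of the nucleus. KIT ligand (Kitl) is made by granulosa cells and acts on the KIT receptor of the oocyte and of theca cells.

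FOXO factors are known to bind the insulin response element, whose core is CAAAACA, read as TGTTTTG on the other strand, in promoters of insulin-regulated genes. Promoters, taken from 250 bases before to 50 bases after the RefSeq start of each gene (GRCm38.p6), were matched for 9 of the 10 genes. The exception was Pappa. The core was found on either strand in the promoters of 2 of the 9, Irs1 and Irs2, and in 6.28% of 32851 mouse promoters of the same length. These promoters are shown because they belong to the pair of genes that act directly below the receptor and because they share this motif, and that of Igf1r is shown because it is the gene that differed between genotypes in cumulus cells. Capitals mark the core and, in Irs1, the CRE core TGACG, read as CGTCA on the other strand, to which CREB-family factors bind and which 20.8% of promoters hold. The sequences run 5′ to 3′ on the strand of the gene.
Irs1, chr1:82291390-82291689, minus strand: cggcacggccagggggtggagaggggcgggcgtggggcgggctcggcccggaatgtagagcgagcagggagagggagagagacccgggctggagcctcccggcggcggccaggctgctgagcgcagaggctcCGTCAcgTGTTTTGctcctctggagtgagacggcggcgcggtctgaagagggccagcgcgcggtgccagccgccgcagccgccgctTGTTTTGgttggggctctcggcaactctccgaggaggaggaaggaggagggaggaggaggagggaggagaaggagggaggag
Irs2, chr8:11008880-11009179, minus strand: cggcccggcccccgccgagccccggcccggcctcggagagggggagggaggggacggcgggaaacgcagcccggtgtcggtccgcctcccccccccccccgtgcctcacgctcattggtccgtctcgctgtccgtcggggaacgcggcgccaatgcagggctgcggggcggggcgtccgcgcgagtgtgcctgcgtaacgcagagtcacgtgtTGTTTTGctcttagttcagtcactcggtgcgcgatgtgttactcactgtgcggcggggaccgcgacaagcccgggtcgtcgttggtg
Igf1r, chr7:67952007-67952306, plus strand: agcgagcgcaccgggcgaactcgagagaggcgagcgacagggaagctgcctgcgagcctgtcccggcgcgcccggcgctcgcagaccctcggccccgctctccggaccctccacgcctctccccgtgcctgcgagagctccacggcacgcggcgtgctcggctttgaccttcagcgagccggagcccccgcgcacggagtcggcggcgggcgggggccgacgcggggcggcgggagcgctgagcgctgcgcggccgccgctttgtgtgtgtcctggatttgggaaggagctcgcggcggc
In Irs1 the core lay 111 and 32 bases before the start, and in Irs2 it lay 37 bases before it. The Igf1r promoter held neither motif nor the forkhead consensus GTAAACA, read as TGTTTAC on the other strand, which 3.65% of promoters and 0 of the 9 genes held. A CRE core was also present 64 bases before the start of Foxo3. The Irs2 and Igf1r windows lie wholly upstream of the gene spans given below, which come from another annotation. Distances and absences therefore hold for the RefSeq starts only. These matches describe the letters of the windows and are not evidence of binding.

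In WT cumulus cells the highest mean levels were those of Foxo1, at 39.8 ± 5.91 FPKM (SD, n = 3), and Kitl, at 35.2 ± 5.62 FPKM, whose ranges overlapped. They were followed by Igf1, at 25.3 ± 2.13 FPKM, and Igf1r, at 14.1 ± 0.955 FPKM, each apart from its neighbours. The remaining 6 genes had means below those: Igfbp5 was at 1.58 ± 0.398 FPKM, Igfbp4 at 1.10 ± 0.477 FPKM, Foxo3 at 0.596 ± 0.158 FPKM and Pappa at 0.575 ± 0.195 FPKM, and each of these overlapped with the next. Irs1, at 0.206 ± 0.0496 FPKM, and Irs2, at 0.0849 ± 0.0448 FPKM, were the lowest, and rested on 22 to 40 and on 5 to 15 reads per library. In WT MGCs the order was different. Kitl was highest at 133 ± 30.4 FPKM, followed by Igf1r at 67.5 ± 5.21 FPKM and by Foxo1 at 48.3 ± 10.4 FPKM, Igfbp5 at 43.0 ± 0.980 FPKM and Pappa at 31.5 ± 19.5 FPKM, of which the last 3 overlapped. Irs2 at 12.8 ± 5.41 FPKM, Igf1 at 11.1 ± 1.88 FPKM, Igfbp4 at 8.92 ± 2.25 FPKM, Foxo3 at 8.07 ± 0.742 FPKM and Irs1 at 6.19 ± 1.02 FPKM were the lowest. The ranges of Irs2, Igf1, Igfbp4 and Foxo3 each overlapped with the next, and Irs1 lay just below Foxo3.

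**Figure D1:**
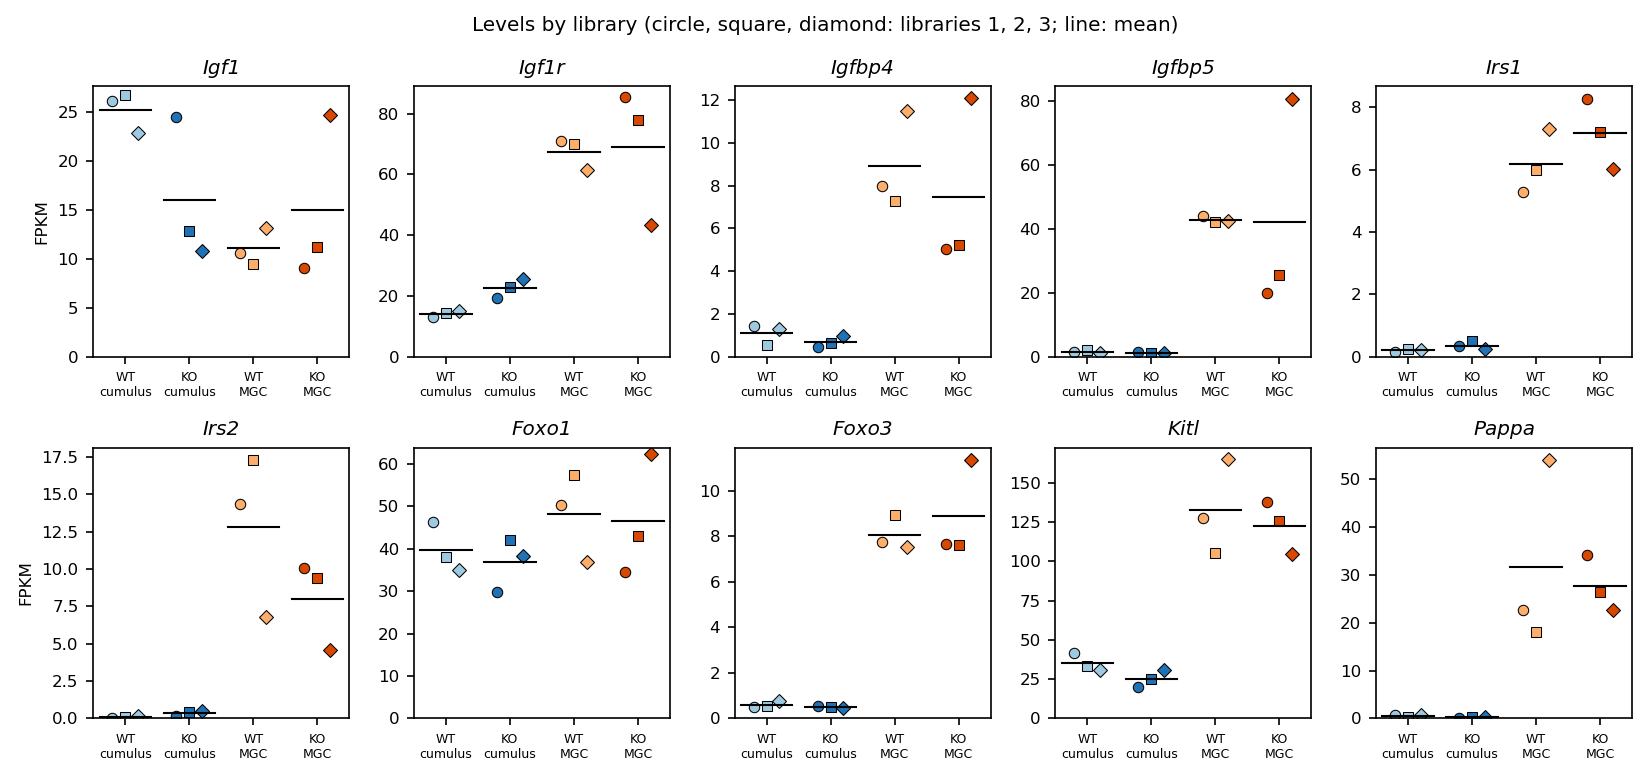
FPKM (y axes, from 0, a scale of its own for each gene) of the 10 genes in the 12 libraries, with circles, squares and diamonds for libraries 1, 2 and 3, lines for the mean of 3, and KO for Sphk1/2gc-/-. In cumulus cells the KO libraries lie above WT for Igf1r (19.4 to 25.8 against 13.1 to 15.0 FPKM), and in MGCs KO library 3 lies far from KO libraries 1 and 2 for Igfbp5 (80.9 against 20.0 and 25.7 FPKM).

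In cumulus cells, Igf1r was the one gene of the 10 that passed the test between genotypes. Its level was higher in Sphk1/2gc-/- mice, whereas Igf1 had a lower mean that did not pass the test. Differences were tested with limma on log2(FPKM + 1), with Benjamini-Hochberg adjustment over all genes that reached 0.5 FPKM on average in either group, and an adjusted p of 0.05 or less passed. Irs1 and Irs2 were below that level in both genotypes, so 8 of the 10 genes were tested, and 1 of the 8 passed. The background was high, since 22.3% of the 12205 genes tested passed (9.66% higher and 12.7% lower). Group ranges did not overlap for 3 of the 8 (Igf1r, Kitl and Pappa), against 42.3% of all genes tested. Pappa (WT mean 0.575, other genotype 0.189 FPKM) and Foxo3 (0.596 and 0.496 FPKM) met the filter through the WT group alone. Irs2 also lay apart, with higher levels in Sphk1/2gc-/- libraries, but was left out by the filter. The count of 3 therefore depends on the filter. The median log2 change of the 8 genes was −0.24, against −0.06 over all genes tested.

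Igf1 (chr10:87858265-87937042, GRCm38), the ligand, stood at 26.2, 26.8 and 22.9 FPKM in the 3 WT cumulus libraries, against 24.5, 12.9 and 10.8 FPKM in the 3 Sphk1/2gc-/- cumulus libraries. The first Sphk1/2gc-/- library was within the WT range and the other two were below it. The log2 change was −0.70 (SE 0.27, limma adjusted p = 0.0984). Without Sphk1/2gc-/- library 1 it was −1.03 (limma adjusted p = 0.0032), so that the call rested on whether this library was included.

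Igf1r (chr7:67952827-68233668), the receptor, stood at 13.1, 14.3 and 15.0 FPKM in WT cumulus cells, against 19.4, 23.0 and 25.8 FPKM in Sphk1/2gc-/- cumulus cells. All 3 Sphk1/2gc-/- libraries were above all WT libraries. The mean was 1.61 times that of WT, with a log2 change of 0.64 (SE 0.16, limma adjusted p = 0.0230). It lost the call without WT library 1 (adjusted p = 0.0813), WT library 2 (0.0783), Sphk1/2gc-/- library 2 (0.0721) or Sphk1/2gc-/- library 3 (0.0879), with the direction kept in each. The ratio of receptor to ligand within a library, which does not depend on scaling, is given as a description. The ratio of Igf1r to Igf1 was 0.499, 0.534 and 0.655 in WT cumulus libraries and 0.791, 1.78 and 2.38 in Sphk1/2gc-/- cumulus libraries, without overlap.

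The binding proteins were low in cumulus cells of both genotypes. Igfbp4 (chr11:99041244-99054392) ranged from 0.554 to 1.45 FPKM in WT, against 0.481 to 0.968 FPKM in Sphk1/2gc-/- cumulus cells, a log2 change of −0.28 (limma adjusted p = 0.347) that rested on 40 to 103 reads per library. Igfbp5 (chr1:72857932-72874884) ranged from 1.27 to 2.03 FPKM and from 1.05 to 1.52 FPKM, a log2 change of −0.20 (limma adjusted p = 0.413). Both overlapped between genotypes. Pappa (chr4:65124174-65357509), the protease, stood at 0.721, 0.353 and 0.651 FPKM in WT, against 0.116, 0.262 and 0.189 FPKM in Sphk1/2gc-/- cumulus cells. All Sphk1/2gc-/- libraries were below all WT libraries, and the mean was 0.328 times that of WT. These levels rested on 70 to 128 reads per WT library and 24 to 57 reads per Sphk1/2gc-/- library. On the log2(FPKM + 1) scale, which understates changes of low genes, the change was −0.40 (SE 0.15, limma adjusted p = 0.0836), and with a pseudocount of 0.1 it was −1.21, which did not pass either.

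Both insulin receptor substrates were low in cumulus cells. Irs1 (chr1:82233101-82291416) had 22, 40 and 36 reads in WT and 58, 89 and 42 reads in Sphk1/2gc-/- cumulus libraries. Irs2 (chr8:10984681-11008458) had 5, 8 and 15 reads in WT and 19, 53 and 61 reads in Sphk1/2gc-/- cumulus libraries, or 0.0491 to 0.135 FPKM and 0.160 to 0.503 FPKM. In FPKM the Irs2 groups did not overlap, whereas those of Irs1 did (0.149 to 0.243 in WT, against 0.239 to 0.493). Tested without the filter on level, the log2 changes were 0.17 for Irs1 (limma adjusted p = 0.569) and 0.32 for Irs2 (limma adjusted p = 0.215). Annotated exons of Irs1, Irs2 and Foxo1 overlap antisense genes (Gm9747, 9530052E02Rik and Gm20402), and since the strand setting of the counting was not given in the sources used here, reads of such partners cannot be told apart.

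The FOXO factors did not pass the test in cumulus cells. Foxo1 (chr3:52268336-52353221) stood at 46.4, 38.0 and 35.1 FPKM in WT, against 29.9, 42.1 and 38.3 FPKM in Sphk1/2gc-/- cumulus cells, a log2 change of −0.12 with a 95% interval from −0.54 to 0.30. Foxo3 (chr10:42181841-42276755) ranged from 0.476 to 0.775 FPKM and from 0.448 to 0.533 FPKM, a log2 change of −0.09 with an interval from −0.40 to 0.22. Foxo1 mRNA was at least 45.3 times as abundant as Foxo3 mRNA in every cumulus library, and at most 6.49 times as abundant in every MGC library. These are transcript levels and carry no information on where the proteins were.

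Kitl (chr10:100015630-100100416) stood at 41.5, 33.1 and 30.9 FPKM in WT, against 19.7, 24.8 and 30.6 FPKM in Sphk1/2gc-/- cumulus cells. The groups did not overlap, but the highest Sphk1/2gc-/- library and the lowest WT library were nearly equal. The log2 change was −0.49 (SE 0.20, limma adjusted p = 0.112). The soluble and membrane-bound forms of KIT ligand come from alternative splicing, which a value per gene does not separate. In bulk samples, fewer cells of a type and less RNA per cell cannot be told apart. Summed levels of markers of other cell types also differed in the cumulus libraries: the 4 theca cell markers summed to 25.7 to 57.6 FPKM in WT, against 10.4 to 13.1 FPKM in Sphk1/2gc-/-, the 10 oocyte markers to 4.19 to 7.52 and 2.62 to 2.85 FPKM, and the 5 red blood cell markers to 4.37 to 26.8 and 0.300 to 1.78 FPKM. The 8 stroma and pericyte markers summed to 7.97 to 35.6 and 7.37 to 25.2 FPKM, the 7 leukocyte markers to 3.87 to 20.2 and 2.34 to 4.86 FPKM, and the 5 endothelial markers to 0.276 to 0.919 and 0.176 to 0.262 FPKM, with Tek at 0 in all Sphk1/2gc-/- libraries. The 8 granulosa cell markers summed to 3805 to 4910 FPKM in WT, against 2558 to 2917 FPKM in Sphk1/2gc-/- cumulus cells. The part of these differences in the results above was not tested.

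Of 77 other genes of the pathway, 60 were tested in cumulus cells, and 9 were higher and 4 lower in Sphk1/2gc-/- mice, or 13 in all, beside a background of 22.3%. Their median log2 change was 0.06, against −0.06 over all genes tested. Among 12 adaptors and regulators of the receptors, 11 were tested and 3 rose, beside 9.66% higher over all genes. Socs3, a feedback inhibitor of receptor signalling, rose from 0.243 ± 0.158 to 3.38 ± 1.51 FPKM (SD, n = 3), a log2 change of 1.76 (SE 0.26, limma adjusted p = 0.00363). Grb14, an adaptor that inhibits the insulin receptor, rose from 18.6 ± 2.68 to 34.6 ± 8.72 FPKM, a log2 change of 0.84. Sh2b2, an adaptor of the insulin receptor, rose by 0.69 on the log2 scale. In the group of 11 ligands, receptors, binding proteins and proteases outside the 10 genes, Igfbp3 averaged 0.0620 FPKM in WT, against 0.720 FPKM in Sphk1/2gc-/- libraries, and was the 1 of 5 tested that passed. Igfbp3, Lyn and Socs3 were below 0.5 FPKM in WT and so were tested only because of their level in Sphk1/2gc-/- libraries, and Igfbp3 and Lyn did not pass without the filter or with the replicate block. Akt1, the kinase below PI3-kinase, rose from 7.29 ± 1.13 to 11.8 ± 1.04 FPKM. Mapkap1, a subunit of mTOR complex 2, fell by 0.63 on the log2 scale and was the 1 of 14 tested mTOR genes that passed. Lyn, a kinase downstream of KIT among other receptors, rose by 0.69 on the log2 scale and was the 1 of 3 tested in the KIT group.

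Of 15 tested genes in the list of FOXO factors and known FOXO targets, 3 rose and 3 fell in Sphk1/2gc-/- cumulus cells, and 9 did not pass. Over all genes tested, 9.66% were higher and 12.7% lower. Trib1, a pseudokinase gene, rose from 1.76 ± 0.394 to 10.2 ± 4.84 FPKM, a log2 change of 1.94 (SE 0.29, limma adjusted p = 0.0042). Gadd45a, a growth arrest and DNA damage gene, rose from 11.2 ± 3.60 to 35.2 ± 11.4 FPKM, and Bcl2l11, which encodes the pro-apoptotic protein BIM, rose from 3.06 ± 0.773 to 8.19 ± 1.34 FPKM. In the opposite direction, Txnip, an inhibitor of thioredoxin and of glucose uptake, fell from 10.3 ± 7.16 to 1.77 ± 1.31 FPKM. Ccng2, a cyclin of growth arrest, fell from 28.1 ± 8.27 to 13.4 ± 1.28 FPKM, and Cat, the antioxidant enzyme catalase, fell from 36.0 ± 5.36 to 19.1 ± 5.12 FPKM. The list thus held targets in both directions, with a median log2 change of 0.13, against −0.06 over all genes tested. Bcl2l11, Gadd45a, Socs3 and Trib1 passed in every one of 12 alternatives run, and the other 9 genes lost the call in at least 1. The count of 13 fell to between 4 and 7 without any single cumulus library other than Sphk1/2gc-/- library 1, without which it was 19.

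**Figure D2:**
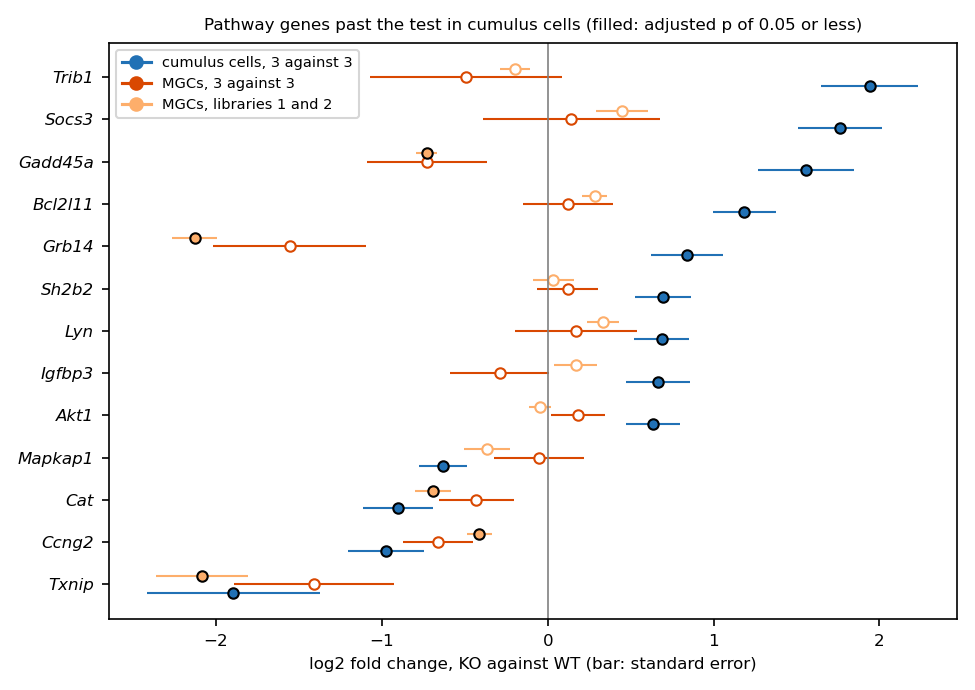
Log2 fold change of Sphk1/2gc-/- (KO) against WT (x axis, bars for the standard error) for the 13 pathway genes that passed the test in cumulus cells, in cumulus cells (blue), in MGCs with all 6 libraries (dark orange) and in MGCs with libraries 1 and 2 of each genotype (light orange), with filled points at an adjusted p of 0.05 or less. Gadd45a and Grb14 lie above 0 in cumulus cells (1.56 and 0.84) and below 0 in MGCs (−0.73 and −1.56 with all libraries). The set of libraries 1 and 2 was chosen with earlier results known.

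In MGCs with all 6 libraries, none of the 10 genes passed the test between genotypes, and the result depended on the pair of libraries numbered 3. By limma, 0 of 10 passed at an adjusted p of 0.05 and 0 at an unadjusted p of 0.05. The background was 0.0393% of 15279 genes (6 genes), and 9.20% at the unadjusted p. Sphk1/2gc-/- library 3 stood apart from the other MGC libraries, with correlations of 0.907 to 0.936 with them, where the highest between any MGC libraries was 0.986. In that library the 5 red blood cell markers summed to 30.6 FPKM against 230 and 291 FPKM in the other two, the 7 leukocyte markers to 12.0 FPKM against 44.2 and 52.4 FPKM, and the 4 theca cell markers to 60.9 FPKM against 148 and 152 FPKM. In WT MGCs these lists summed to 262 to 404, 134 to 208 and 134 to 220 FPKM. Oocyte markers summed to 37.6 to 93.9 FPKM in WT, against 28.5 to 115 FPKM in Sphk1/2gc-/- MGCs, stroma and pericyte markers to 120 to 199 and 90.1 to 123 FPKM, and endothelial markers to 10.7 to 14.3 and 7.63 to 9.03 FPKM. Whether these differences contributed to the values below was not tested.

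Without both libraries numbered 3, Igfbp4, Igfbp5 and Irs2 were lower in Sphk1/2gc-/- MGCs. This split was chosen with earlier results of these data known. WT library 3 stood less far apart, since its highest correlation was 0.968, against 0.936 for Sphk1/2gc-/- library 3. Over all genes, 6 passed with all libraries, 278 without Sphk1/2gc-/- library 3, 1 without WT library 3 and 2486 without both. Adjusted p-values without both depend on that choice, here and below, and are given as a description. With 2 libraries per group, 3 of the 10 genes passed, all lower, against a background of 16.1% of 15433 genes (5.07% higher and 11% lower). Igfbp5 stood at 44.1, 42.2 and 42.7 FPKM in WT, against 20.0, 25.7 and 80.9 FPKM in Sphk1/2gc-/- MGCs. The third Sphk1/2gc-/- library was above all WT libraries and the other two were below all of them. The log2 change was −0.30 (SE 0.47, limma adjusted p = 0.894) with all libraries and −0.90 (SE 0.13, limma adjusted p = 0.0192) without those numbered 3. Leaving out Sphk1/2gc-/- library 3 alone gave −0.89 (limma adjusted p = 0.0353). Igfbp4 and Irs2 passed in 1 of 13 alternatives each, which was the fit without both libraries numbered 3.

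Igfbp4 followed the same order, at 8.00, 7.26 and 11.5 FPKM in WT, against 5.04, 5.24 and 12.1 FPKM in Sphk1/2gc-/- MGCs. Its library 3 was the highest of its group in both genotypes. The log2 change was −0.30 with all libraries (limma adjusted p = 0.827) and −0.49 without those numbered 3 (limma adjusted p = 0.0302). Pappa stood at 22.7, 18.0 and 53.9 FPKM in WT, against 34.2, 26.5 and 22.6 FPKM in Sphk1/2gc-/- MGCs. Here WT library 3 was far above all others. The log2 change was −0.04 with all libraries (limma adjusted p = 0.988) and 0.55 without those numbered 3, which did not pass (limma adjusted p = 0.0875).

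Irs2 stood at 14.3, 17.3 and 6.79 FPKM in WT, against 10.0, 9.41 and 4.59 FPKM in Sphk1/2gc-/- MGCs. In both genotypes library 3 was the lowest, and within each number the Sphk1/2gc-/- library was below its WT counterpart. The log2 change was −0.59 with all libraries (SE 0.39, limma adjusted p = 0.703) and −0.64 without those numbered 3 (SE 0.11, limma adjusted p = 0.0267). Irs1 stood at 5.29, 6.00 and 7.30 FPKM in WT, against 8.28, 7.21 and 6.01 FPKM in Sphk1/2gc-/- MGCs, with log2 changes of 0.18 (limma adjusted p = 0.798) and 0.40 (limma adjusted p = 0.0702). The ratio of Irs2 to Irs1 within a library was 2.71 and 2.88 in WT libraries 1 and 2, 1.21 and 1.31 in Sphk1/2gc-/- libraries 1 and 2, and 0.931 and 0.765 in the libraries numbered 3.

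Igf1 stood at 10.6, 9.47 and 13.1 FPKM in WT, against 9.06, 11.2 and 24.8 FPKM in Sphk1/2gc-/- MGCs, and the log2 change was 0.29 with all libraries and 0.01 without those numbered 3. Igf1r stood at 70.9, 70.0 and 61.5 FPKM in WT, against 85.5, 77.9 and 43.5 FPKM in Sphk1/2gc-/- MGCs. For this gene libraries 1 and 2 of Sphk1/2gc-/- were above all WT libraries and library 3 was below them. Its log2 change was −0.02 with all libraries and 0.21 without those numbered 3 (limma adjusted p = 0.0985). Kitl ranged from 105 to 165 FPKM in WT, against 104 to 138 FPKM in Sphk1/2gc-/- MGCs, with log2 changes of −0.10 and 0.18. Foxo1 ranged from 37.0 to 57.5 FPKM and from 34.4 to 62.3 FPKM, with log2 changes of −0.07 and −0.47, of which the second did not pass (limma adjusted p = 0.0734). Foxo3 ranged from 7.54 to 8.92 FPKM and from 7.63 to 11.4 FPKM, with log2 changes of 0.10 and −0.11. None of these 5 genes passed in either set of libraries.

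**Figure D3:**
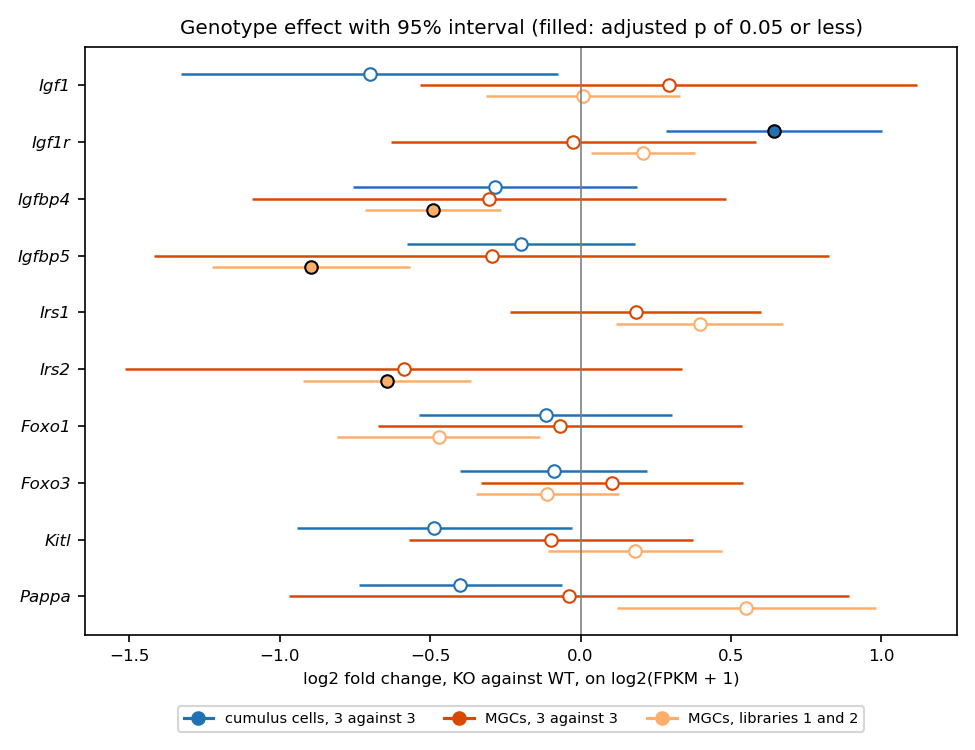
Log2 fold change of Sphk1/2gc-/- (KO) against WT on log2(FPKM + 1) (x axis, bars for the 95% interval from limma) for the 10 genes, in cumulus cells (blue), in MGCs with all 6 libraries (dark orange) and in MGCs with libraries 1 and 2 of each genotype (light orange), with filled points at an adjusted p of 0.05 or less. Igf1r is the filled point in cumulus cells (0.64), where Irs1 and Irs2 have no point. Igfbp4, Igfbp5 and Irs2 are filled in MGCs with libraries 1 and 2 (−0.49, −0.90 and −0.64), a set chosen with earlier results known.

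Of the 77 other pathway genes, 70 were tested in MGCs with all libraries. By limma, 0 passed, while 11 were at or under 0.05 before adjustment, beside 9.20% of all genes. Igfbp2, a further binding protein, stood at 26.7, 24.6 and 32.7 FPKM in WT, against 10.4, 12.4 and 18.6 FPKM in Sphk1/2gc-/- MGCs. It was lower in all 3 Sphk1/2gc-/- libraries, with a log2 change of −0.997 that did not pass (limma adjusted p = 0.245). Without the libraries numbered 3, 73 were tested, of which 1 was higher (Sos2) and 20 were lower, beside 5.07% higher and 11% lower over all genes, and Igfbp2 passed with −1.11 (limma adjusted p = 0.00817). Of the 20 lower, 4 were in the group of binding proteins and their regulators (Igfbp2, Igfbp7, Stc1 and Stc2, the last 2 encoding stanniocalcins that inhibit PAPP-A), and 10 were in the list of FOXO factors and targets. That list had 18 tested members and a median log2 change of −0.58, against −0.12 over all genes tested. Txnip, Ccng2 and Cat were lower in this set of MGC libraries as well as in cumulus cells, with log2 changes of −2.09, −0.41 and −0.69 in MGCs. The targets that rose in cumulus cells did not rise past the test here. Gadd45a was lower (−0.73, limma adjusted p = 0.0075), and Trib1 (−0.20) and Bcl2l11 (0.28) did not pass.

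WT cumulus cells and WT MGCs differed in 9 of the 10 genes. Igf1 was higher in cumulus cells, 8 genes were lower, and Foxo1 did not pass. The background was 81.8% of 15339 genes (26.3% higher and 55.5% lower in cumulus cells), and the median of all genes was −0.58 on the log2 scale, so changes are read against that shift. Each FPKM value was scaled within its library, and the cell types came in separate tables. Cell type, table and library preparation cannot be told apart in this comparison.

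Igf1 was 2.28 times as high in WT cumulus cells as in WT MGCs (log2 difference 1.13, SE 0.14, limma adjusted p = 0.000162). Its receptor was the reverse, with Igf1r 4.78 times as high in MGCs (log2 difference −2.18, SE 0.11, limma adjusted p = 1.41e-06). The ratio of Igf1r to Igf1 was 0.499 to 0.655 in WT cumulus libraries and 4.68 to 7.39 in WT MGC libraries. Pappa was 54.9 times as high in MGCs (log2 difference −4.22), and Igfbp5 was 27.2 times as high (−4.10). Igfbp4 was 8.12 times as high in MGCs (−2.25), so the protease and both of its substrates had higher transcript levels in MGCs. By the ratio of means, Irs2 was 151 times (−3.58) and Irs1 30.1 times (−2.57) as high in MGCs, ratios that rest on 5 to 40 reads per WT cumulus library. Foxo3 (−2.51) and Kitl (−1.87) were lower in cumulus cells as well. Direction and call held for these 9 genes in all 12 alternatives, including median-ratio scaling and quantile normalization. Foxo1, at −0.26 (limma adjusted p = 0.226), changed direction with the scaling, with 0.50 under median-ratio scaling (limma adjusted p = 0.0277) and −0.56 under quantile normalization (limma adjusted p = 0.0309).

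The difference between the cell types moved with the base composition and the length of transcripts. Genes were placed in 10 equal bins. From the bin with the lowest GC content to that with the highest, the median log2 difference went from 0.21 to −1.44, and from the bin of the shortest to that of the longest transcripts it went from 0.37 to −1.02. Relative to the median of its own GC bin, Igf1 was at 0.92 and Foxo1 at 0.31, and the other 8 genes were between −4.01 (Pappa) and −1.27 (Igfbp4). The directions of Igf1 and of these 8 genes were thus kept against genes of similar GC content, whereas Foxo1 turned from −0.26. A kept direction need not be far from the bin, since 75.8% of genes in its GC bin were below Igf1 and 16.2% below Igfbp4. Relative to genes of similar length, Igf1 was at 2.15, Foxo1 at 0.76, and the other 8 between −3.20 (Pappa) and −0.91 (Kitl). Igf1 and Igf1r were in GC bins with medians of 0.21 and −0.57, which bears on comparing their ratio between cell types. The part of composition in these differences was not tested further. In WT MGCs, the theca, stroma, red blood cell, leukocyte, oocyte and endothelial marker sums given above were all higher than in WT cumulus cells. The granulosa cell marker sum was higher as well, at 8802 to 14970 FPKM, against 3805 to 4910 FPKM in WT cumulus cells. The part of these marker sums in the differences was not tested. In cumulus cells the genotype change also moved with composition, in the same bins. Its median log2 change went from −0.16 in the lowest GC bin to 0.07 in the highest. It went from −0.34 in the bin of the shortest transcripts to 0.06 in that of the longest. Igf1 and Kitl were in the lowest GC bin, and Igf1r was among the genes of the longest transcripts. The part of composition in the genotype changes was not tested.

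**Figure D4:**
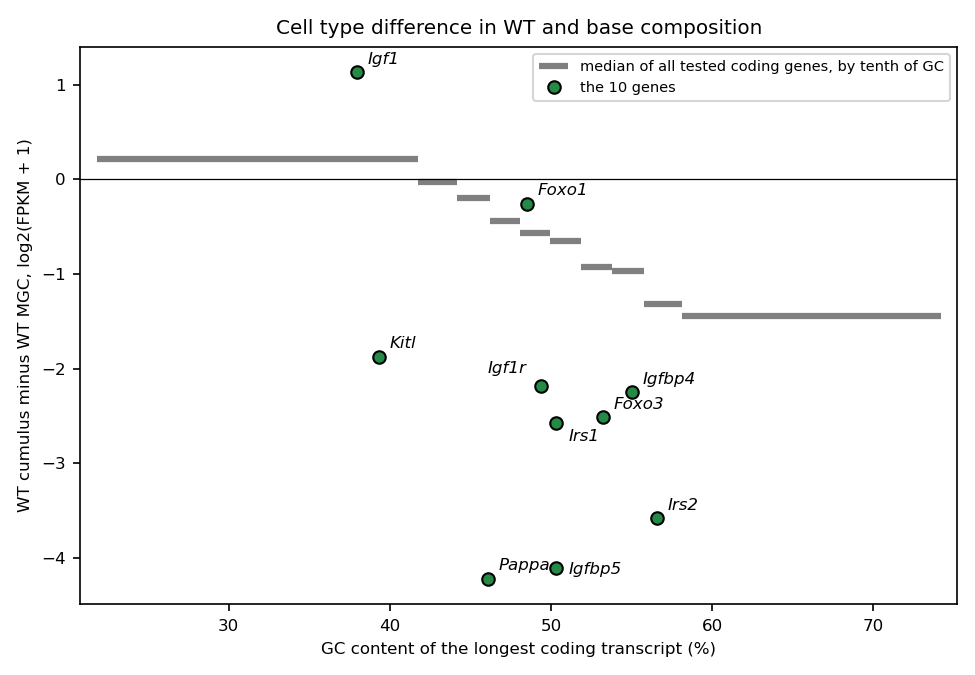
Difference between WT cumulus cells and WT MGCs on log2(FPKM + 1) (y axis) against the GC content of the longest coding transcript (x axis, %), with grey bars for the median of all tested coding genes in each of 10 bins of GC content and green points for the 10 genes. Medians go from 0.21 to −1.44 across the bins, and 8 of the 10 genes lie below the bar of their bin, with Igf1 and Foxo1 above it.

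Between the cell types, 70 of the 77 other pathway genes were tested, and 7 were higher and 56 lower in cumulus cells, beside 26.3% higher and 55.5% lower over all genes. The 7 higher genes were Rheb (3.53), Eif4ebp1 (2.61), Rps6 (2.08), Sod2 (1.86), Cat (1.09), Fbxo32 (0.79) and Rps6kb1 (0.47, all log2 differences), of which 4 belong to the mTOR group. Rps6 has near-identical copies in the genome, and its value is uncertain. All 8 tested ligands, receptors, binding proteins and proteases were among those lower in cumulus cells, the direction of most genes that passed.

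Whether genotype effects differed between the cell types was tested in 1 model over the 12 libraries. By limma, 0 of the 10 genes passed at an adjusted p of 0.05 and 0 at an unadjusted p of 0.05, against backgrounds of 3.93% and 22.1% of 15869 genes. The differences, as the effect in cumulus cells minus that in MGCs, came closest to passing for Igf1r (0.67, 95% interval −0.00471 to 1.34, limma adjusted p = 0.229), Igf1 (−0.995, interval −2.04 to 0.05, adjusted p = 0.247) and Irs2 (0.91, interval −0.06 to 1.88, adjusted p = 0.256). The higher Igf1r in cumulus cells is therefore not shown to be particular to them. Without both MGC libraries numbered 3, the difference passed for Irs2 (0.96, limma adjusted p = 0.0131) and Pappa (−0.95, limma adjusted p = 0.0257), with 15.5% of 15973 genes passing. With all libraries the Pappa difference was −0.36 (limma adjusted p = 0.690), and among the libraries left out was WT MGC library 3, at 53.9 FPKM of Pappa. Irs2 and Pappa each passed in 1 of 18 alternatives. Irs2 was at 5 to 61 and Pappa at 24 to 128 reads per cumulus library, so that their cumulus terms rested on few reads.

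For each of the 10 genes, the genes with the most similar pattern across the 12 libraries were found among 6719 genes that averaged 5 FPKM or more, as those with the smallest root mean square difference of centred log2(FPKM + 1). Foxo3 had the neighbours at the smallest distances, Ei24 (0.106) and Tsc2 (0.112), against its own deviation around the mean of 1.31. Kitl was closest to Slc30a1 (0.134), Igf1r to Pdcd6ip (0.143), Foxo1 to Cables2 (0.153), and Igfbp5 to Mmp14 (0.160), a membrane-bound matrix metalloproteinase. Igf1 was closest to Arl6ip6 (0.165), Irs1 to Klhl11 (0.170), Igfbp4 to Arf5 (0.232), Irs2 to Zhx2 (0.244) and Pappa to Helz2 (0.276). The 12 libraries include both cell types, so these distances include the difference between them. A distance is to be read against the gene's own deviation, which was 0.293 for Foxo1, 0.570 for Igf1 and 2.08 for Igfbp5.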

How the data were processed

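RNA of MGCs and cumulus cells of WT and Sphk1/2gc-/- mice (4 groups, 3 libraries each) was sequenced with NEBNext Ultra libraries. The authors deposited FPKM values per gene in 1 table per cell type. HISAT2 and GRCm38 are named in the submitters' processing notes, and the counting tool and strand setting are not given in the sources used here. In each library 90.6% to 92.1% of values above 0, multiplied by exon length, were whole multiples of 1 read (tolerance 0.02 reads), which gave the read totals. Rows without a gene name numbered 66 (cumulus) and 64 (MGC). Symbols and exons came from GENCODE M21 (GRCm38) and promoters from RefSeq.

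Genes that reached 0.5 FPKM on average in either compared group were tested with limma 3.58.1 (R 4.3.3, trend) on log2(FPKM + 1), with Benjamini-Hochberg adjustment over all tested genes. The method was checked on simulated data, with independent noise of equal size for all genes. Large changes were set there in well-expressed genes only. That check does not show how the test performs for genes at low levels or with a library that stands apart. The 10 genes are always named, with pathway genes past a test and, per list, the highest or most changed. The 10 genes and all lists were chosen with earlier results of these data known. Same-numbered MGC libraries of the 2 genotypes deviated together (correlations 0.220, 0.158 and 0.224), so they were treated as paired in an alternative, and cumulus libraries did not (−0.148, −0.0511 and 0.115). Alternatives were a pseudocount of 0.1, no filter, median-ratio scaling, quantile normalization, a replicate block, 1 model of 12 libraries, and omission of libraries.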

Additional observations from a re-analysis of the deposited data

Results flagged for a closer look

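For 2 pathway genes outside the 10, the genotype effect differed between cumulus cells and MGCs by the test of the difference in limma. For Grb14 the effect in cumulus cells was higher than in MGCs by 2.40 on the log2 scale (SE 0.54, adjusted p = 0.0353). The Grb14 level was 20.4, 19.8 and 15.5 FPKM in WT, against 25.1, 42.3 and 36.3 FPKM in Sphk1/2gc-/- cumulus cells, and 38.2, 44.7 and 11.8 FPKM in WT, against 7.71, 9.75 and 8.66 FPKM in Sphk1/2gc-/- MGCs, so that the groups lay apart in opposite directions. For Gadd45a the effect was higher by 2.29 (SE 0.50, adjusted p = 0.0320). Its level was 10.1, 8.23 and 15.2 FPKM in WT, against 23.1, 45.6 and 37.0 FPKM in Sphk1/2gc-/- cumulus cells, and 20.9, 21.7 and 10.5 FPKM in WT, against 12.6, 12.3 and 5.96 FPKM in Sphk1/2gc-/- MGCs, where the groups overlapped. Of 71 pathway genes tested these 2 passed, against 3.93% of all genes. Neither passed without a filter on level, nor when WT MGC library 1, WT MGC library 2, WT cumulus library 1 or WT cumulus library 2 was left out, and Grb14 also lost the call without WT cumulus library 3 and Gadd45a under quantile normalization.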

How the results depend on the processing

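Counts of the 10 genes past the test in cumulus cells were 0 in place of 1 without a filter or in 1 model of 12 libraries, and 0 to 2 when 1 library was left out. For pathway genes in cumulus cells the count of 13 became 4 without a filter, 8 with the replicate block, and 4 to 19 with 1 library left out. In MGCs the counts of 0 became 3 (the 10 genes) and 21 (pathway genes) without both libraries numbered 3, 3 for pathway genes in 1 model of 12 libraries, and 0 to 1 and 0 to 2 with 1 library left out. For the difference of effects, the 10 genes went from 0 to 2 and pathway genes from 2 to 13 without both libraries numbered 3, and pathway genes to 0 without a filter, 1 under quantile normalization and 0 to 6 with 1 library left out. Counts between cell types stayed within 1.5 times. The replicate block changed no call of the 10 genes, and took the MGC calls over all genes from 6 to 3. Between cell types, calls of 4033 higher and 8520 lower became 5729 and 6477 under median-ratio scaling and 5728 and 5595 under quantile normalization, with medians of −0.15 and −0.04 in place of −0.58. Over all genes tested, cumulus calls ranged from 1240 without a filter to 3930 without Sphk1/2gc-/- library 1, and MGC calls reached 278 without Sphk1/2gc-/- library 3 and 244 in 1 model of 12 libraries.

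Directions turned as follows, none past the test except Foxo1 between cell types. Without both libraries numbered 3, MGC changes were 0.21 for Igf1r, −0.11 for Foxo3, 0.18 for Kitl and 0.55 for Pappa, and the differences of effects were 0.36 for Foxo1 and 0.022 for Foxo3. Foxo1 between cell types was 0.50 under median-ratio scaling. The differences of effects with a pseudocount of 0.1 were −0.18 for Igfbp4, −0.0066 for Igfbp5 and 0.35 for Irs1. Under median-ratio scaling they were −0.034 for Igfbp4 and 0.0097 for Irs1, and under quantile normalization 0.024 for Irs1 and 0.013 for Foxo1. With 1 library left out, Foxo1 in cumulus cells ranged from −0.22 to 0.022. In MGCs the ranges were −0.11 to 0.57 for Igf1, −0.21 to 0.27 for Igf1r, −0.89 to 0.089 for Igfbp5, −0.30 to 0.12 for Foxo1, −0.068 to 0.19 for Foxo3, −0.25 to 0.071 for Kitl and −0.35 to 0.42 for Pappa. For the differences of effects they were −0.18 to 0.38 for Igfbp4, −0.29 to 0.69 for Igfbp5, −0.12 to 0.081 for Irs1 and −0.24 to 0.18 for Foxo1. The cause was not tested. Igfbp4, Irs1, Irs2, Foxo3 and Pappa in cumulus cells rest on 5 to 128 reads per library, which limits their precision.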
